A study of Mus musculus with 9 samples.

Results

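The 7 loci described here carry the names of enzymes that put methyl groups on chromatin, of a subunit that such an enzyme needs, and of an RNA transcribed opposite to one of them. They were taken by name from a table of transcript levels in mouse pancreatic islets: Kmt5a, Dnmt3a, Dnmt3aos, Suz12, Nsd1, Nsd2 and Dot1l, 7 of 10706 names. Islets, the clusters of endocrine cells within the pancreas, were isolated from virgin female mice and from pregnant females at the gestational day labelled GD14.5. RNA of whole islets was sequenced in 5 libraries of the virgin and 4 of the GD14.5 group. The labels state no genotype, strain, age or treatment beyond virgin or GD14.5, and do not say how many animals gave a library. Each p-value therefore sets an effect only against the variation between libraries, which may be technical. In bulk islets, fewer cells of a type and less RNA per cell cannot be told apart.

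Values are FPKM, fragments counted per transcript length and library size, as the authors deposited them. The table holds mostly long noncoding RNA genes, and its lines have a gene name but no transcript identifier. A line named for a coding gene is therefore a transcript of unknown identity at that locus. RefSeq lists noncoding transcripts for Nsd1 (1 of 24), Dot1l (1 of 8) and Dnmt3aos (1 of 1), and 0 for Kmt5a, Dnmt3a, Suz12 and Nsd2. GENCODE M21, on the same major build, lists 2 to 4 transcripts with a retained intron at each of the 6 coding loci, and processed transcripts at Kmt5a (5 of 13) and Nsd1 (1 of 11). Of 14 islet endocrine markers, only Pcsk1 has a line, at 0 FPKM in every library. The islet identity of the libraries could therefore not be checked on those markers.

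Histone and DNA methylation set how tightly chromatin is packed and which genes can be read. KMT5A places the first methyl group on lysine 20 of histone H4, a mark tied to DNA replication and mitosis, and the study's title puts this enzyme downstream of EGFR in beta cell proliferation. DNMT3A methylates DNA anew and is known in beta cells for silencing genes during maturation. SUZ12 is a core subunit of Polycomb repressive complex 2, whose catalytic subunit EZH2 restrains the Cdkn2a locus in replicating beta cells. NSD1 and NSD2 methylate lysine 36 of histone H3. DOT1L methylates histone H3 within the nucleosome core and, unlike the other histone methyltransferases here, has no SET domain.

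On GRCm38.p6, counted from 1, Kmt5a lies on chromosome 5 (124439930 to 124462311), as does Nsd2 (33820676 to 33897966). Suz12 lies on chromosome 11 (79993106 to 80034123), Nsd1 on chromosome 13 (55209782 to 55318325) and Dot1l on chromosome 10 (80755101 to 80795461). Dnmt3a (chromosome 12, 3801559 to 3914443) contains Dnmt3aos (3859293 to 3862244), which runs on the opposite strand. Of the 1385 exonic bases of Dnmt3aos in GENCODE, 133 overlap a Dnmt3a exon. The strand setting of the counting is not stated, so reads from the shared stretch cannot be assigned to either strand. The sequences before the start sites of Kmt5a, Suz12 and Dnmt3aos are shown because Kmt5a stands apart from the others in its values, and the others give a CpG-rich and a CpG-poor window to set beside it. Each holds the 250 bases before a RefSeq start site on GRCm38.p6, at chr5:124439680-124439929 (plus strand), chr11:79992856-79993105 (plus strand) and chr12:3862245-3862494 (minus strand). Capitals mark the CCAAT box (letters CCAAT, searched on both strands).
Kmt5a: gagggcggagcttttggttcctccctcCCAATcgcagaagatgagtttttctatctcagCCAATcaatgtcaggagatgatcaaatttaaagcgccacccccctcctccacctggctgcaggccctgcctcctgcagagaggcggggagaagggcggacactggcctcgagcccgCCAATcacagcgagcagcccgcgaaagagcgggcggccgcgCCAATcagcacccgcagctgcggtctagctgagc
Suz12: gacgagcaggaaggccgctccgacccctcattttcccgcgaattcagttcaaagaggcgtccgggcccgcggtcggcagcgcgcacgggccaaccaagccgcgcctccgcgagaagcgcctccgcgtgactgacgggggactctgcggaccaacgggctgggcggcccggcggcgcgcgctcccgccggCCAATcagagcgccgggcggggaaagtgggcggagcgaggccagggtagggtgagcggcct
Dnmt3aos: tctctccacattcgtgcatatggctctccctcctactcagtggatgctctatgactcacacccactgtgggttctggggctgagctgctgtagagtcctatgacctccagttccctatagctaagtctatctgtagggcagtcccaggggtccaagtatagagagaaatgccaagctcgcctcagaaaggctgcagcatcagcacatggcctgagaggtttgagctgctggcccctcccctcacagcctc

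The window before this Kmt5a start held 4 CCAAT boxes, where 33.8% of 32851 promoter windows held at least 1 and 0.84% held 4 or more. It is 1 of 3 start sites that RefSeq gives for Kmt5a, and the windows at the other start sites held 1 and 2. The Suz12 window held 1 CCAAT box and 37 CpG dinucleotides, against 16 at Kmt5a, 2 at Dnmt3aos and a median of 6 over all windows. The GC box (letters GGGCGG, both strands) occurred 3 times at Kmt5a, 3 times at Suz12 and 0 times at Dnmt3aos, and 32.7% of all windows held it. These matches describe letters. Which start site gave the measured transcript is not known.

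Kmt5a was nearly absent from the library numbered 1 in each group and present in the other 7. In virgin libraries 1 to 5 it stood at 0.08, 1.96, 1.38, 3.83 and 4.31 FPKM. In GD14.5 libraries 1 to 4 it stood at 0.04, 1.98, 1.70 and 2.56 FPKM. The groups overlapped, with a low library in each. The log2 fold change on log2(FPKM + 0.5), GD14.5 minus virgin, was −0.37 ± 0.56 (SE; 95% interval −1.53 to 0.79; limma adjusted p = 0.819; two-sided exact permutation p = 0.595). Leaving out virgin replicate 1 moved it to −0.85, and leaving out GD14.5 replicate 1 moved it to 0.19. Without both it was −0.29 ± 0.44 (SE; 95% interval −1.22 to 0.63; limma adjusted p = 0.697), with means of 2.87 ± 1.42 FPKM (SD, n = 4) and 2.08 ± 0.439 FPKM (SD, n = 3). The fit without both was chosen after the values were seen.

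**Figure D1:**
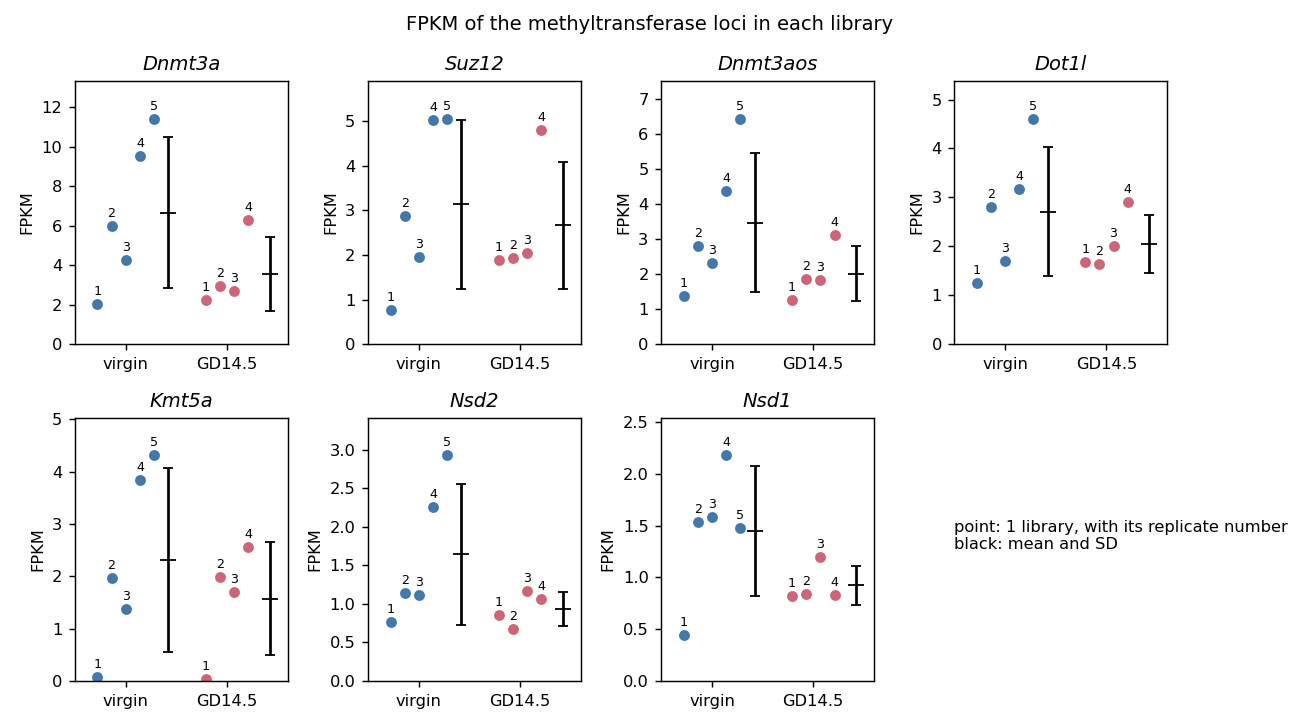
FPKM (vertical axis, linear, from 0) of each locus in 5 virgin and 4 GD14.5 libraries. Points are libraries with their replicate number, and black marks give the mean and SD. Kmt5a is at 0.08 and 0.04 FPKM in the libraries numbered 1, and at 1.38 to 4.31 in the others, while Suz12 and Dot1l keep values of 0.76 to 1.89 in the same libraries.

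The libraries numbered 1 had the lowest summed FPKM of the table, 5415.3 and 6488.1, against 6905.7 to 20530.6 in the others. Whether the lower sum has a part in the low Kmt5a values was not tested. The FPKM ratio of Kmt5a to Suz12 was 0.105 in virgin replicate 1 and 0.021 in GD14.5 replicate 1, and 0.533 to 1.026 in the other 7 libraries. The ratio of Kmt5a to Dot1l was 0.064 and 0.024, against 0.70 to 1.22. Over the table, 824 tested loci had at least 1 FPKM in all 7 other libraries. The higher of the 2 values in the libraries numbered 1 was a median of 0.968 times the lowest of the others (quartiles 0.82 and 1.20). At Kmt5a it was 0.058 times, the lowest of the 824, followed by Morf4l1b at 0.166. Of the 824, 1 locus (0.121%), Kmt5a itself, was under 10% of the lowest other library. The contrast of the libraries numbered 1 with the other 7 was chosen after the Kmt5a values were seen. The low rank of Kmt5a is therefore a description and not a test.

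**Figure D2:**
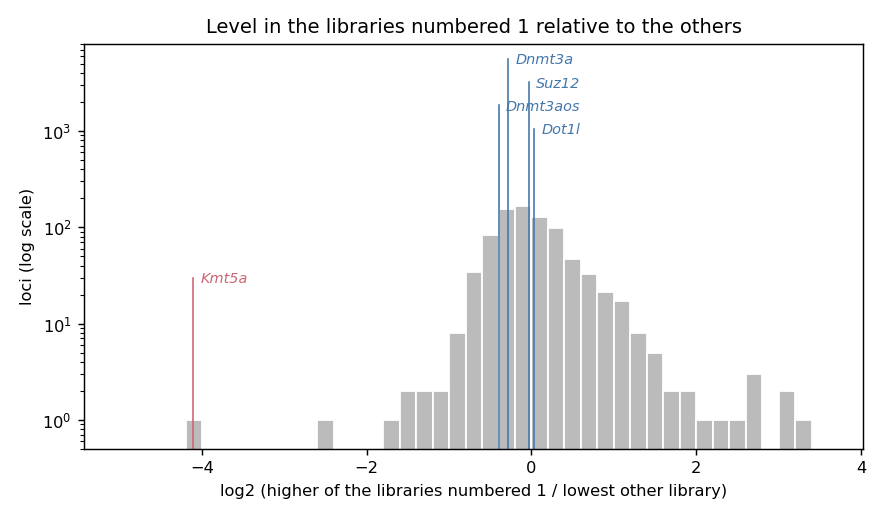
Distribution over 824 loci of the log2 ratio between the higher value in the libraries numbered 1 and the lowest value in the other 7 libraries (horizontal axis), with the count of loci on a logarithmic vertical axis. Vertical lines mark the methyltransferase loci with at least 1 FPKM in those 7 libraries. Kmt5a, at a ratio of 0.058, is at the far left, and Dnmt3a, Dnmt3aos, Suz12 and Dot1l are inside the bulk.

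With no minimum in the other libraries, 5 of 2377 tested loci (0.21%) were under 10% of the lowest other value in both libraries numbered 1: Kmt5a, Ppp1r12a, Slc30a1, Tomm70a and Usp45. The latter 4 are listed at 0 there, and their lowest values elsewhere were 0.07 to 0.35 FPKM. The same count was 1 for the pair numbered 2, 0 for number 3 and 2 for number 4. Whether handling, sequencing or the split of reads between Kmt5a transcripts moves with the number was not tested, since the labels give no batch and the table gives 1 Kmt5a line.

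Suz12, the Polycomb subunit, stood at 0.76, 2.88, 1.96, 5.03 and 5.06 FPKM in virgin libraries 1 to 5 and at 1.89, 1.93, 2.05 and 4.80 in GD14.5 libraries 1 to 4. The groups overlapped: virgin replicate 1 was below and virgin replicates 4 and 5 were above all GD14.5 libraries, with virgin replicates 2 and 3 between. The log2 fold change was −0.09 ± 0.48 (SE; 95% interval −1.08 to 0.90; limma adjusted p = 0.928; exact permutation p = 0.817). With libraries scaled to equal medians it turned to 0.24 ± 0.15 (SE; limma adjusted p = 0.631) and with the replicate number as a block to 0.11 ± 0.24 (limma adjusted p = 0.858). Virgin replicate 5 has no library of its number at GD14.5 and does not enter the block's estimate, and leaving it out with no block also gave 0.11. As deposited, the difference was 0.11 without virgin replicate 4, 0.013 without GD14.5 replicate 1 and 0.005 without GD14.5 replicate 2. The direction of Suz12 thus changed both with the scaling and with the libraries included.

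Dnmt3a, the de novo DNA methyltransferase, was the most abundant of the 7, at rank 246 of 2377 tested loci by mean FPKM. It stood at 2.06, 5.97, 4.26, 9.55 and 11.43 FPKM in virgin libraries 1 to 5 and at 2.23, 2.97, 2.71 and 6.30 in GD14.5 libraries 1 to 4. Of the 5 virgin libraries, 3 lay between 5.97 and 11.43 FPKM, where 1 of the 4 GD14.5 libraries lay, and the groups overlapped. The log2 fold change was −0.72 ± 0.51 (SE; 95% interval −1.78 to 0.34; limma adjusted p = 0.817; exact permutation p = 0.214). All of this signal came from 1 line, and a second Dnmt3a line is listed at 0 in every library.

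Dnmt3aos, the opposite-strand RNA inside Dnmt3a, stood at 1.39, 2.81, 2.33, 4.37 and 6.45 FPKM in virgin libraries and at 1.25, 1.87, 1.83 and 3.13 in GD14.5 libraries. GD14.5 was the lower library in 4 of 4 same-numbered pairs, but the groups overlapped. At the other loci it was lower in 2 or 3 of the 4 pairs. The share of all tested loci with 4 of 4 was not counted, and 86.7% of them had a fold change below 0. Whether the libraries are paired is not known. The log2 fold change was −0.56 ± 0.44 (SE; 95% interval −1.48 to 0.36; limma adjusted p = 0.817; exact permutation p = 0.214). Its second line reached at most 0.03 FPKM.

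The H3K36 methyltransferase loci were the least abundant. Nsd1 stood at 0.44, 1.54, 1.58, 2.18 and 1.48 FPKM in virgin libraries and at 0.82, 0.84, 1.20 and 0.83 at GD14.5. Virgin libraries 2 to 5 were above all GD14.5 libraries, and virgin replicate 1 was below them. The log2 fold change was −0.38 ± 0.37 (SE; 95% interval −1.14 to 0.37; limma adjusted p = 0.817; exact permutation p = 0.222), and −0.59 ± 0.34 without both libraries numbered 1 (limma adjusted p = 0.640). Nsd2 stood at 0.76, 1.14, 1.12, 2.26 and 2.93 FPKM in virgin libraries and at 0.85, 0.67, 1.17 and 1.06 at GD14.5. Its 2 highest virgin libraries were above all GD14.5 libraries and the other 3 overlapped with them. The difference, on the same scale, was −0.49 ± 0.37 (SE; 95% interval −1.26 to 0.29; limma adjusted p = 0.817; exact permutation p = 0.222).

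Dot1l had the smallest ratio between its extreme libraries, 3.69 times. As a share of the mean, the SD of Nsd1 was smaller than that of Dot1l in virgin (43.5% against 48.8%) and GD14.5 libraries (20.1% against 29.0%). Dot1l stood at 1.25, 2.80, 1.70, 3.17 and 4.61 FPKM in virgin libraries and at 1.67, 1.63, 2.01 and 2.91 at GD14.5, with overlapping groups. The log2 fold change was −0.25 ± 0.42 (SE; 95% interval −1.12 to 0.61; limma adjusted p = 0.820; exact permutation p = 0.492).

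Limma called 0 of the 7 loci, and 0 had an unadjusted p under 0.05. Over the table it called 4 of 2377 (0.168%), and 2.52% fell under that unadjusted p. Fitted with the block of replicate numbers, it called 0 of the 7 against 26 of 2377 (1.09%), and with equal library medians 0 of the 7 against 29 of 2377 (1.22%). Values of virgin and GD14.5 libraries overlapped at all 7 loci, and 0.589% of all tested loci had groups that did not overlap. The fold change was below 0 at 7 of 7 loci, as it was at 86.7% of all loci tested. The median of the 7 was −0.38, beside −0.30 over the table. With equal medians 5 of 7 were below 0, beside 56.2% of all, and the medians were −0.08 and −0.03. Neither share says anything particular about these loci, and the intervals leave room for changes in either direction.

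**Figure D3:**
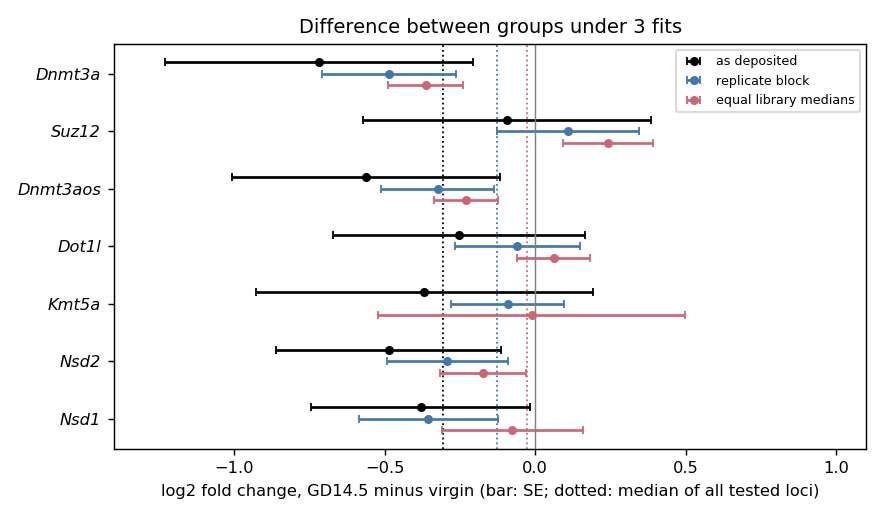
Log2 fold change, GD14.5 minus virgin, of each locus (horizontal axis) from values as deposited, with the replicate number as a block, and with equal library medians. Bars are SE, and dotted lines give the median of all tested loci in the same fit, −0.30, −0.13 and −0.03. Most points move with these medians, but Nsd1 hardly moves with the block (−0.381 as deposited and −0.355). Suz12 lies on the other side of 0 in both other fits, and Dot1l does with equal medians (0.062).

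The levels of most of the 7 loci followed the sum of the library. The 3 libraries with the highest summed FPKM were virgin 4, virgin 5 and GD14.5 replicate 4, at 14636.3 to 20530.6. They were above the other 6 at Kmt5a, Dnmt3a, Dnmt3aos, Suz12 and Dot1l. Their median tested locus was also higher, at 1.124 to 1.604 on the log2 scale of the tests, against 0.138 to 0.791 in the other 6. The share of all tested loci that did the same was not counted. The pattern is therefore not shown to be particular to these loci. Nsd1 and Nsd2 did not follow the summed FPKM throughout. Nsd1 stood at 1.48 FPKM in virgin replicate 5, the library of highest sum, below virgin replicates 2 and 3 (1.54 and 1.58), and at 0.83 in GD14.5 replicate 4. Nsd2 stood at 1.06 in GD14.5 replicate 4, below GD14.5 replicate 3 (1.17). Together the 7 loci took 0.125% to 0.208% of the summed FPKM in virgin and 0.135% to 0.157% in GD14.5 libraries.

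Each locus was therefore also set against the median tested locus of its library, on the log2(FPKM + 0.5) scale. Dnmt3a lay 1.75 ± 0.308 above it in the 5 virgin and 1.32 ± 0.237 in the 4 GD14.5 libraries (mean ± SD), a difference of −0.43 (exact permutation p = 0.0714). Dnmt3aos lay 0.958 ± 0.160 above it in virgin and 0.683 ± 0.164 at GD14.5, a difference of −0.28 (exact permutation p = 0.0238), and its lowest virgin value, 0.781, was under its highest GD14.5 value, 0.791. In limma on equal medians the unadjusted p was 0.0165 for Dnmt3a and 0.0595 for Dnmt3aos, with adjusted p of 0.335 and 0.522, where 10.2% of all loci had an unadjusted p under 0.05. Neither locus passed the adjusted threshold. Nsd1 and Nsd2 lay near the library median, with differences of −0.09 and −0.20 (exact permutation p = 0.746 and 0.246). The difference was 0.19 for Suz12, 0.03 for Dot1l and −0.08 for Kmt5a (exact permutation p = 0.468, 0.794 and 0.770).

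**Figure D4:**
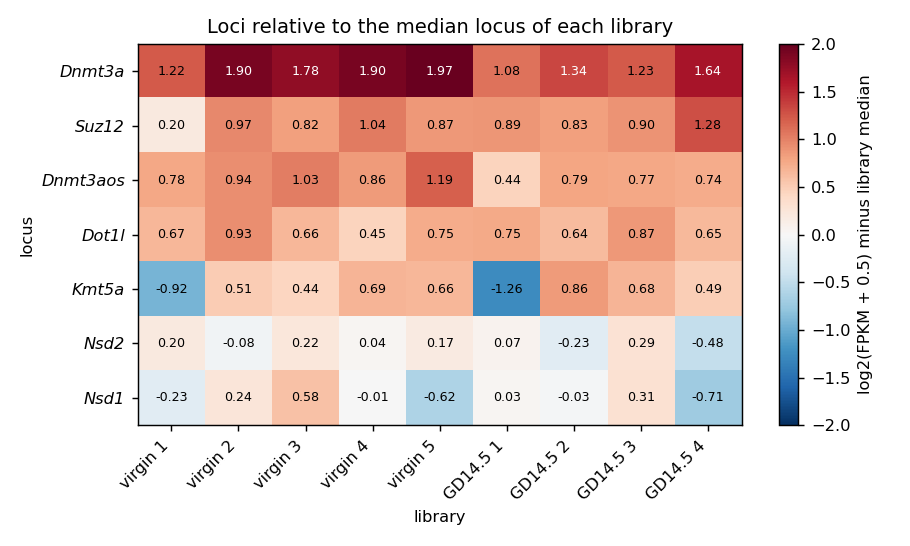
Log2(FPKM + 0.5) of each locus (rows) minus the median tested locus of the library (columns), in color and numbers. Kmt5a is at −0.92 and −1.26 in the libraries numbered 1 and at 0.44 to 0.86 in the others. Nsd1 is lowest in virgin 5 and GD14.5 replicate 4, at −0.62 and −0.71.

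By mean FPKM over 9 libraries the order was Dnmt3a (5.28), Suz12 (2.93), Dnmt3aos (2.83), Dot1l (2.42), Kmt5a (1.98), Nsd2 (1.33) and Nsd1 (1.21). FPKM is per length, so levels of loci were set side by side within a library. The transcript measured at each locus is unknown. The order is therefore one of the listed values and may not hold for the whole output of each gene. Dnmt3a was above Suz12 in 9 of 9 libraries, by 0.70 ± 0.346 on the log2(FPKM + 0.5) scale (SD), with an exact sign-flip permutation p of 0.00391, the smallest that 9 libraries allow, and an adjusted p of 0.0235 over the 6 neighbouring pairs. The other 5 neighbouring pairs did not differ beyond their spread between libraries. Their exact adjusted p was 0.269 to 0.805. Suz12 and Dnmt3aos, for instance, differed by 0.03 ± 0.359 (SD). Kmt5a was above Nsd2 in 7 of 9 libraries, by 0.22 ± 0.859 (SD; exact permutation p = 0.465, adjusted p = 0.698). Without both libraries numbered 1, it was above Nsd2 in 7 of 7, by 0.63 ± 0.309 (SD; exact permutation p = 0.0156, adjusted p = 0.0468). Those libraries were singled out because Kmt5a is near 0 there, so the latter p is no test of the order. Without the 3 libraries of highest summed FPKM, Dnmt3a was above the next locus, Dnmt3aos, in 6 of 6 libraries, by 0.635 ± 0.20 (SD; exact permutation p = 0.0312, the smallest that 6 libraries allow, adjusted p = 0.187). No single pair among the 6 can pass the adjusted threshold with so few libraries.

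FPKM ratios between loci in 1 library do not depend on its scaling. On the log2(FPKM + 0.5) scale they depend on it in part, through the added 0.5. The FPKM ratio of Dnmt3a to Suz12 was 2.71, 2.07, 2.17, 1.90 and 2.26 in virgin libraries 1 to 5 and 1.18, 1.54, 1.32 and 1.31 in GD14.5 libraries 1 to 4. Every virgin value was above every GD14.5 value. On the log2(FPKM + 0.5) scale the ratio was 0.975 ± 0.091 in virgin and 0.349 ± 0.132 at GD14.5 (SD), a difference of −0.63 (exact permutation p = 0.00794, the smallest possible). All 21 pairs of the 7 loci were compared, and this was the only one that separated the groups. Its p adjusted over the 21 pairs was 0.167, the lowest that a sole pair can reach here. Among all pairs of tested loci, 4.7% separate the groups, near the share of 1 in 21. Leaving out each library in turn gave differences of −0.68 to −0.57. The pair was singled out after its values were seen.

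**Figure D5:**
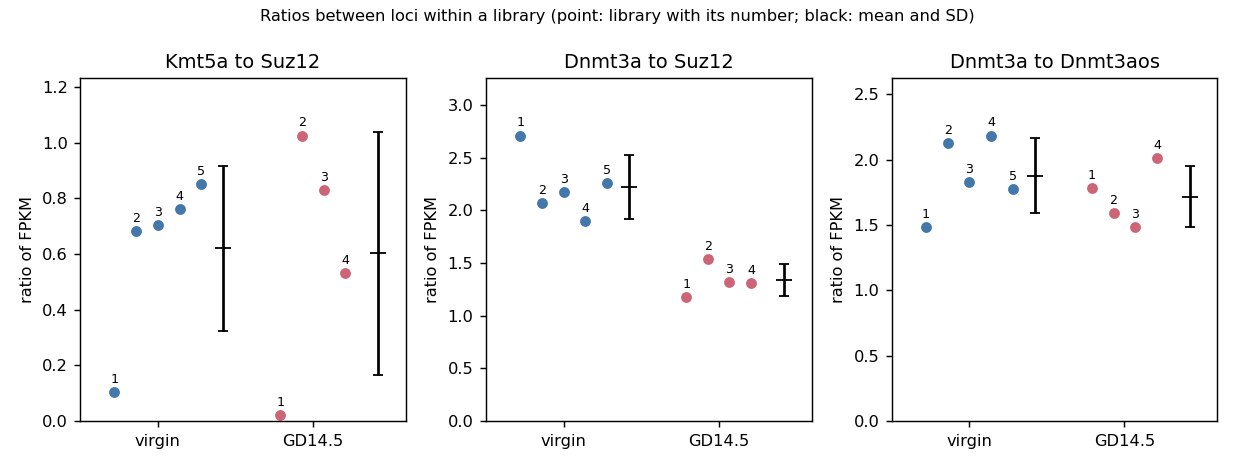
Ratio of FPKM between loci in each library (vertical axis, linear, from 0) for Kmt5a to Suz12, Dnmt3a to Suz12 and Dnmt3a to Dnmt3aos. Points are libraries with their number, and black marks give the mean and SD. Dnmt3a to Suz12 is 1.90 to 2.71 in virgin and 1.18 to 1.54 in GD14.5 libraries, whereas the other ratios overlap between the groups.

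The ratio of Dnmt3a to its opposite-strand RNA overlapped between the groups. Dnmt3a to Dnmt3aos was 1.88 ± 0.285 in the 5 virgin and 1.72 ± 0.234 in the 4 GD14.5 libraries (mean ± SD), and 1.48 to 2.19 over all libraries. Relative to the library median, Pearson's r between them was 0.80 (exact permutation p = 0.00324, adjusted p = 0.068 over 21 pairs) and Spearman's rho 0.83 (exact permutation p = 0.00827, adjusted p = 0.174) over 9 libraries. Without the 2 libraries farthest from the Dnmt3a median r was 0.69. The r of 0.80 was the highest of the 21 pairs, and 0 pairs passed the threshold. Other tested loci came closer to each of them, with r up to 0.93 for Dnmt3a and 0.95 for Dnmt3aos. Because Kmt5a splits the libraries into 2 and 7, its r was taken over those 7, where it ranged from −0.46 with Dnmt3a to 0.02 with Nsd2. As deposited, r ranged from 0.32 to 0.98 and 17 pairs passed the threshold. Those values share the summed FPKM of the library.

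The loci most like each of the 7 were taken by Pearson's r of the same relative values over 9 libraries, among 2376 other loci, as a description. Nearest to Kmt5a were Rgp1 (0.93), Gm33645 (0.925) and Adar (0.91). This likeness rests on the libraries numbered 1, since Kmt5a is near 0 there: over the other 7 libraries r was 0.115, 0.29 and −0.28. Rgp1 stood at 4.63 and 4.14 FPKM in the libraries numbered 1 and at 8.93 to 26.98 elsewhere. Nearest to Suz12 were Aff4 (0.93), Gfpt1 (0.92) and Ddx6 (0.91), all names of coding genes. Nearest to Dnmt3a were the noncoding Gm39212, LOC115488769 and Gm33732 (each 0.93), and to Dnmt3aos the noncoding Gm39786 (0.95), LOC115487209 (0.94) and Gm46123 (0.94). Nearest to Nsd1 were Gm51616 (0.94), B930095G15Rik (0.93) and Gm51415 (0.90), to Nsd2 Gm16249 (0.87), Gm39303 (0.86) and Gm6471 (0.85), and to Dot1l 4930511A08Rik (0.83), Gm4735 (0.82) and Gm32942 (0.81).

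Of 125 genes for writers, erasers, readers and Polycomb subunits of chromatin methylation, 17 have a line in the table, the 6 coding members among them, and 10 passed the minimum for testing. Limma called 0 of the 4 that are not members, and 0 with the block or with equal medians. Mbd2, which encodes a reader of methylated DNA, stood at 11.7 ± 8.64 FPKM in the 5 virgin and 6.55 ± 3.96 in the 4 GD14.5 libraries (mean ± SD). Its difference on the log2 scale was −0.61 ± 0.58 (SE), with a limma adjusted p of 0.817. Pcgf3, of Polycomb repressive complex 1, stood at 2.76 ± 1.63 and 1.72 ± 0.645 FPKM, a log2 difference of −0.48 ± 0.42 (SE) with the same adjusted p. Kdm5c, a histone H3 lysine 4 demethylase, stood at 1.69 ± 1.26 and 0.85 ± 0.546 FPKM, a log2 difference of −0.58 ± 0.42 (SE), again with that adjusted p. The fourth, Zbtb33, which encodes a DNA-binding protein of the methyl-CpG reader group, stood at 0.81 ± 1.06 and 0.408 ± 0.556 FPKM. These differences were within the spread between libraries.

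Near the members, the table holds lines for Gm15621, a pseudogene 10.1 kb from Kmt5a (mean 0.013 FPKM), Gm31623, a noncoding gene inside Dnmt3a (mean 0.154 FPKM), and Dtnb, 16.1 kb from Dnmt3a. Dtnb, which encodes the cytoskeletal adaptor beta-dystrobrevin, stood at 1.04 ± 0.740 FPKM in the 5 virgin and 0.368 ± 0.159 in the 4 GD14.5 libraries (mean ± SD). The groups overlapped, and the log2 difference of −0.70 ± 0.37 (SE) had a limma adjusted p of 0.817. Markers of other cell types could hardly be read. Of 41 markers of acinar, ductal, endothelial, immune and mesenchymal cells, 3 have a line, Sox9 at no more than 0.01 FPKM and the collagen genes Col1a1 and Col3a1 with a summed 0 to 16.2 FPKM in virgin and 0 to 8.46 in GD14.5 libraries. Their part in the values above was not tested.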

How the data were processed

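The authors deposited 1 table of FPKM for 9 libraries, rounded to 2 decimals. Per the labels' protocols, RNA was extracted with TRIzol and enriched on oligo(dT) beads before library amplification. The submitters' processing notes name the build GRCm38.p6. For aligner, quantifier and strandedness the sources used here give no name, and the depth is unknown. FPKM has no counting interval. The table summed to 5415.3 to 20530.6 FPKM per library.

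From 26375 lines, 480 with a copy suffix were left out, and lines of 1 name were summed. The 2377 of 10706 names with a mean FPKM of at least 0.5 were tested, all 7 members among them. GD14.5 was compared with virgin by limma 3.58.1 in R 4.3.3 on log2(FPKM + 0.5) with a variance trend, two-sided, adjusted by Benjamini-Hochberg over 2377 names at 0.05. This scale understates changes of low loci. The limma step was tested on simulated data with large changes and no difference in sum between libraries. That test does not tell whether changes of the size seen here would be found. Permutation tests were exact and two-sided, over 126 group assignments, sign flips for levels and pairings for correlations.

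Deviations of same-numbered libraries from their group means correlated at 0.204 to 0.59 over loci, above the limit of 0.1 for pairing. Other pairs correlated at −0.545 to 0.493, so some of them passed that limit too. The deviations were of values as deposited and hold the summed FPKM of the library. They cannot show whether the libraries are paired. The replicate block was an alternative. Equal medians scale each library to 1 median over tested names. Named loci were the members, the 8 most abundant of a chromatin list of 125, loci within 20 kb, and the 3 most alike by r. Zbtb33, the remaining tested locus of that list, and the loci low in the libraries numbered 1 were named after their values were seen. The members and lists were chosen with earlier results of these data known. Gene coordinates and the printed sequences are from RefSeq on GRCm38.p6, where 5 of the 7 members have a promoter entry.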

Additional observations from a re-analysis of the deposited data

Results flagged for a closer look

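Dixon's criterion was applied to the libraries of each group at 12 loci, 24 sets in all, and marked a library as far from its group in 4. Chance marks about 1 set in 20, here 1.2. The sets share the same libraries and hold values as deposited, so that number is only a rough guide. On the log2(FPKM + 0.5) scale, Suz12 was 2.41 in GD14.5 replicate 4 against 1.26 to 1.35 in the other GD14.5 libraries. Mbd2 was 3.70 in the same library against 2.28 to 2.41. That library had a summed FPKM of 14636.3, against 6488.1 to 8287.7 in the other GD14.5 libraries. Nsd1 was 0.77 in GD14.5 replicate 3 against 0.40 to 0.42. Nsd1 was also −0.089 in virgin replicate 1 against 0.99 to 1.42 in the other virgin libraries. Kmt5a in the libraries numbered 1 was not marked, because the other libraries of each group spread too widely.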

How the results depend on the processing

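None of the 7 loci, and none of the chromatin list, was called by limma in any of 21 alternatives, and the adjusted p of the 7 ranged from 0.189 to 1. Dnmt3a, Dnmt3aos, Nsd1 and Nsd2 kept a negative difference in all 21. Suz12 turned positive in 10, with 0.24 on equal medians, 0.17 on equal totals, 0.11 with the replicate block, 0.24 with the block on equal medians, 0.10 with a term for the 3 libraries of highest sum and 0.17 without them. Kmt5a turned to 0.08 with the replicate block on equal medians and 0.045 without those 3 libraries. Dot1l turned to 0.062 on equal medians and 0.051 with the block on equal medians. Leaving out 1 library gave −0.85 to 0.19 for Kmt5a, −1.04 to −0.48 for Dnmt3a, −0.79 to −0.32 for Dnmt3aos, −0.43 to 0.11 for Suz12, −0.62 to −0.24 for Nsd1, −0.65 to −0.29 for Nsd2 and −0.45 to −0.06 for Dot1l. Among all tested loci, 29 were called on equal medians, 31 on equal totals, 26 with the replicate block, 24 with the block on equal medians, 21 with the term for sum and 14 without the 3 libraries, against 4 as deposited and 3 to 5 with 1 library left out. The block left the members and the chromatin list without a call. The counts of neighbouring levels and of correlated pairs were not run with it. The count of neighbouring loci that differ in level was 1 of 6. It was 0 without the 3 libraries (adjusted p from 0.187), where 6 libraries allow no smaller exact p than 0.0312. It was 2 without both libraries numbered 1, which were singled out for their low Kmt5a values. The count of correlated pairs, 0 of 21, was 1 with a pseudocount of 1, 13 with no minimum for the library median, 17 as deposited, and 0 to 1 with 1 library left out. With no minimum most names are near 0, so that median hardly corrects the library. The unknown depth limits all of these values.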
